A study of Homo sapiens with 120 samples.

Results

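The genes described here carry symbols beginning with H1-, H2AC, H2BC, H3C or H4C, the current names of the clustered histone genes and of the H1 linker family. They were chosen by symbol alone, each read from the probe set with the highest mean over all arrays among those annotated to that single gene. The rule found 50 of 19775 genes, namely 11 H1, 9 H2A, 14 H2B, 7 H3 and 9 H4 symbols. For 35 of them at least 3 arrays reached the limit of 6.18 on the log2 scale, the median over all probe sets, and these were tested. The other 15 reached it on fewer than 3 arrays and are H1-1, H1-10-AS1, H1-9P, H2AC15, H2AC16, H2BC1, H2BC11, H2BC14, H2BC15, H2BC17, H3C1, H3C11, H4C10P, H4C13 and H4C7.

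Cells of TK6, an established human B lymphoblastoid line widely used in genetic toxicology, had been exposed to 5 chemicals, and 120 arrays in 40 groups of 3 numbered experiments measured the RNA. Formaldehyde (FA), which cross-links proteins to DNA, was given at 50, 100 and 200 µM. The alkylating clastogens methyl methanesulfonate (MMS) and ethyl methanesulfonate (EMS) were given at 80, 160 and 320 µM and at 1, 2 and 4 mM. The aneugens colcemid (COL) and vincristine (VCR), which bind tubulin and disturb the mitotic spindle, are each labelled 1, 2 and 4 µg/ml. Their titles carry leading zeros, so a decimal point may be missing and the true concentrations are unsure; the doses are called lowest, middle and highest here. Each chemical had untreated cultures of its own, and RNA was taken at 4 h and 24 h. The series sets formaldehyde beside clastogens and aneugens to characterise how it harms the genome, and each comparison below is treated minus untreated of the same chemical and time.

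The core histones H2A, H2B, H3 and H4 form the spool around which DNA is wrapped, and H1 linker histones bind the DNA between nucleosomes. The replication-dependent genes lie in clusters, have no introns and are transcribed mainly while DNA is being copied. Most of their mRNAs end in a stem-loop bound by SLBP in place of a poly(A) tail, and they are degraded when DNA synthesis stops, although several of the genes can also yield polyadenylated transcripts.

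The symbol rule takes in more than replication-dependent histones. Of the 50 genes, 42 lie on chromosome 6 by RefSeq, 3 on chromosome 3, 2 on chromosome 1 and 1 each on chromosomes 12, 17 and 21. H1-10 is a replication-independent linker histone, H1-6, H1-7, H1-8 and H2BC1 are germ cell histones, H1-9P, H2AC5P and H4C10P are pseudogenes, and H1-10-AS1 is an antisense RNA and encodes no histone. Of the 35 tested genes, 30 are other histone genes (among them H2BC12L on chromosome 21), 3 are germ cell histones, 1 is a pseudogene and 1 is H1-10. The probe sets of 11 tested members end in _s_at or _x_at, which Affymetrix uses for probes that match several transcripts, and for them signal from near-identical histone genes cannot be told apart. The labels name a one-cycle labelling protocol. Such protocols commonly prime on poly(A), so a value may describe only part of a histone gene's RNA.

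Promoter sequences are shown for some of the genes named in the results below, from the RefSeq table for GRCh38.p14, which held 43 of the 50 members and 32 of the 35 tested ones. H2BC4 and H2AC6 start 246 bases apart on opposite strands of chromosome 6, so that 1 stretch is the promoter of both, and both were higher with the aneugens. H2BC12 and H2BC21 are 2 more of the H2B genes that were higher, on chromosomes 6 and 1. H2BC4 and H2BC21 were below the limit on every untreated array and passed the filter through treated arrays, so their rises are a description. H4C11 is the gene that was lower after 24 h of all 5 highest doses. Capitals mark the TATA box TATAAA, the CCAAT box, which the factor NF-Y is known to bind, and the octamer ATTTGCAT, which the factor POU2F1 is known to bind in H2B promoters. Each was searched on both strands, and in these windows no capital run overlaps another.
H2BC4 and H2AC6, chr6:26123927-26124171, plus strand, with H2BC4 starting to the left and H2AC6 to the right: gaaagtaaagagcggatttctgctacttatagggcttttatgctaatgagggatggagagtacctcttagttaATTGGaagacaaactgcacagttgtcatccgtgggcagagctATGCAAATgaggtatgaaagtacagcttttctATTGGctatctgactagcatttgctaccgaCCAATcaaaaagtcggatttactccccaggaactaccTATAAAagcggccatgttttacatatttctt
H2BC12, chr6:27146859-27147018, minus strand: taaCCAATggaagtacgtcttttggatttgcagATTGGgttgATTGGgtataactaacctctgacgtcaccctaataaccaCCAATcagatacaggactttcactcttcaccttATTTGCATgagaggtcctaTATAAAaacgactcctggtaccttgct
H2BC21, chr1:149886683-149886842, minus strand: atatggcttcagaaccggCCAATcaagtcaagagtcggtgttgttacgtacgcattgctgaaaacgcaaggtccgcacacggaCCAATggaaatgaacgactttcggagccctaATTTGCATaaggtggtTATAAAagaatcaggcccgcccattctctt
H4C11, chr6:27823932-27824091, plus strand: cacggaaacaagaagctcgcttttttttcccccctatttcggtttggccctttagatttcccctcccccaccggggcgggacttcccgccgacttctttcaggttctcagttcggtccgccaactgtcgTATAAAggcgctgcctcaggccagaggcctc

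The octamer of H2BC12 and that of H2BC21 both begin 46 bases before the start, and their TATA boxes begin 27 and 30 bases before it. In the 250 bases before the start the octamer was found in 6 of 8 tested H2B and 5 of 6 tested H2A promoters, and in none of the 8 H1, 5 H3 and 5 H4 promoters. In the H2A promoters it began 98 to 204 bases before the start. H2AC6, H2AC8, H2AC14 and H2AC17 start 233 to 246 bases from an H2B gene on the opposite strand, so their windows also cover its promoter. The octamer of H2BC4 and H2AC6 is 1 site counted for both. The octamer was in 1.66% of all 27305 promoters in the table. TATAAA was in 20 of the 32 tested members and in 11.1% of all promoters, and CCAAT in 27 of the 32 and in 33.0% of all promoters. A match describes letters in this window and is not a measured binding site.

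On these arrays the B-cell markers bore out the label, with 7 of 7 listed B lymphoblastoid markers above the limit on every array. Of the marker lists of other cells, 1 of 7 for T and NK cells, 2 of 7 for monocytes and granulocytes, 3 of 9 for epithelium and fibroblasts and 1 of 2 for red blood cells were above it on every array. The array medians ran from 6.13 to 6.24. The 3' minus 5' difference of the ACTB control probe sets, a sign of RNA quality, is given beside the results. In such bulk samples fewer cells of a type and less RNA per cell cannot be told apart. The experiments are numbered without saying what they share, so p-values measure only the spread between these samples, and 3 arrays a group limit their precision.

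Of the 35 tested members, 32 were called in at least 1 of the 30 comparisons with untreated cells and 3 (H2AC25, H2AC4 and H3C6) in none. A call is an adjusted p under 0.05 in limma with Benjamini-Hochberg adjustment over all 14023 tested genes. After 24 h at the highest dose of colcemid 14 members were higher and 5 lower, while 36.4% (18% higher, 18.3% lower) of all tested genes were called. With vincristine 11 were higher and 5 lower, against 35.7% (17.5% higher, 18.2% lower) of all genes. Formaldehyde at 200 µM gave 14 higher and 5 lower against 47.7% (23.8% higher, 23.9% lower). With 320 µM MMS 17 were higher and 8 lower against 58.5% (30.8% higher, 27.7% lower), and with 4 mM EMS 5 were higher and 12 lower against 51.5% (27.8% higher, 23.6% lower). The members' share called, 54.3% for colcemid, 45.7% for vincristine, 54.3% for formaldehyde, 71.4% for MMS and 48.6% for EMS, may be read against these shares of all genes.

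At 4 h the members moved less. Formaldehyde at 200 µM raised 14 and lowered 1 of 35, a share of 42.9% against 53.8% (29.6% higher, 24.2% lower) of all genes. MMS at 320 µM raised 1, H2BC21, and lowered 4, the linker genes H1-2, H1-3, H1-4 and H1-5, against 28.6% (15.3% higher, 13.4% lower), and EMS at 4 mM lowered 1 against 9.6% (5.55% higher, 4.05% lower). No member was called by limma at 4 h with the highest dose of colcemid, where 5 had an unadjusted p under 0.05 and 0.913% (0.806% higher, 0.107% lower) of all genes were called. None was called with vincristine either, with 4 under that unadjusted limit and a background of 0.25% (0.185% higher, 0.0642% lower).

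Some counts rest on dim genes or on single experiments. No untreated array reached the limit for 5 tested members, H2BC21, H2BC3, H2BC4, H3C2 and H4C1, and H4C8 reached it on fewer than 3, so these 6 passed the filter through treated arrays and had to be high there. Their values are given below as a description, with no fold and no p, and the counts of H2B genes and of octamer genes are also given without them, an alternative chosen after seeing the data. H1-5 and H4C4 reached the limit on only 5 and 6 of the 120 arrays, at least 3 of them untreated. The filter thus favoured falls of these genes, which are also a description but stay in the counts. Among the 29 members other than the 6, the calls at 24 h were 10 higher and 5 lower with colcemid, 7 and 5 with vincristine, 9 and 5 with formaldehyde, 11 and 8 with MMS and 3 and 12 with EMS. At 4 h they were 11 higher and 1 lower with formaldehyde and 0 and 4 with MMS. The lower calls fell from 8 to 4 without experiment 3 of MMS, from 5 to 3 without experiment 3 of formaldehyde, and from 5 to 3 or 2 without experiment 1 or 2 of colcemid. The 5 higher calls with EMS became 3 without experiment 1, and the single lower call with formaldehyde at 4 h became 0 without experiment 2. Among the 24 members with a plain _at probe set the calls at 24 h were 10 with colcemid (34.3% of all genes read this way), 8 with vincristine (34.6%), 10 with formaldehyde (45%), 16 with MMS (56.4%) and 8 with EMS (49.4%). The shares for vincristine, formaldehyde and EMS, 8, 10 and 8 of 24, were near or below those of all genes.

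**Figure D1:**
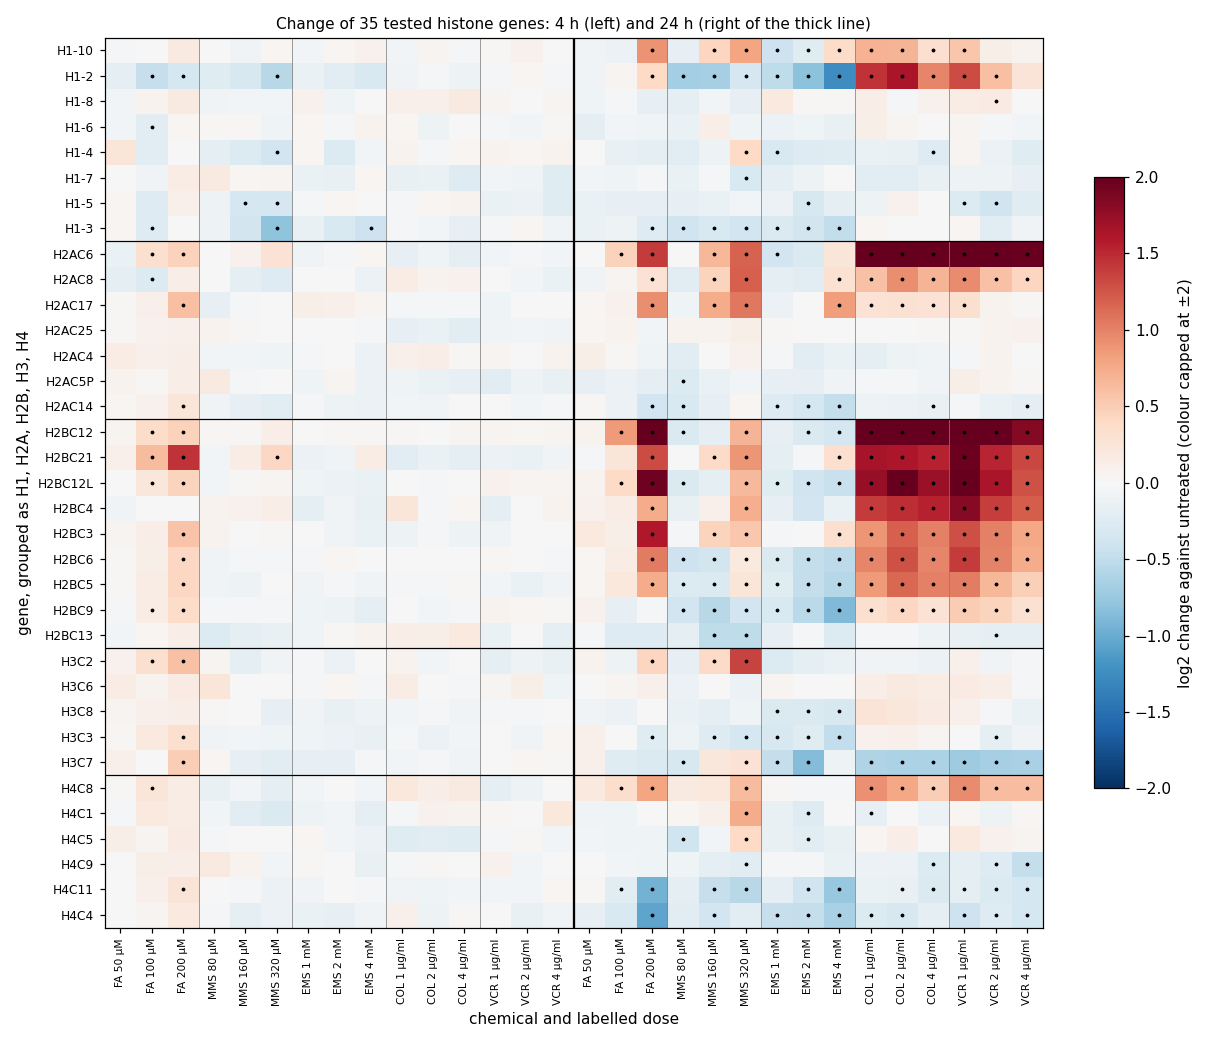
Log2 change against untreated cells of the 35 tested histone genes (rows, grouped as H1, H2A, H2B, H3 and H4) in the 30 comparisons (columns, 4 h left of the thick line and 24 h right of it). Red is higher and blue lower, colours are capped at 2 either way, and a dot marks an adjusted p under 0.05; the H2B block is red for colcemid and vincristine at 24 h, and the 4 h side holds most of its dots under formaldehyde.

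H2B genes made up most of the large rises. After 24 h at the highest dose, 8 of 9 tested H2B genes were called higher with colcemid and 8 of 9 with vincristine, with none lower, and their median changes were 1.01 and 0.78 against a median over all genes near 0 (-0.0021 and -0.0011). With formaldehyde 7 of 9 were higher and none lower (median 1.04), with MMS 7 and 2 (median 0.54), and with EMS 2 and 5 (median -0.35). The H2B shares called were 88.9% with colcemid and with vincristine, 77.8% with formaldehyde, 100% with MMS and 77.8% with EMS. Of all genes 36.4%, 35.7%, 47.7%, 58.5% and 51.5% were called in that order. Without H2BC21, H2BC3 and H2BC4, 5 of 6 were higher with colcemid and with vincristine and none lower (medians 0.99 and 0.61), 4 and 0 with formaldehyde (0.89), 4 and 2 with MMS (0.21) and 0 and 5 with EMS (-0.48). The H2B gene not called with colcemid was H2BC13, whose change of -0.10 did not pass the test.

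H2BC12, which encodes a core H2B protein and had the highest mean signal of the tested members, read 10.16, 10.08 and 10.08 in the untreated cultures of the colcemid set at 24 h. Treated cultures read 12.36, 12.51 and 12.38 at the highest dose, a change of 2.31 (SE 0.063, 4.96-fold, adjusted p = 1.53e-15). The ranges lie far apart. In the vincristine set untreated arrays at 10.10, 10.09 and 10.06 stood against 11.89, 11.97 and 11.89, a change of 1.83 (SE 0.0757, 3.56-fold, adjusted p = 1.42e-13). With 200 µM formaldehyde the values went from 10.15, 10.11 and 10.07 to 12.44, 12.37 and 12.53, a change of 2.33 (SE 0.0801, 5.04-fold, adjusted p = 1.98e-15). Formaldehyde's change minus colcemid's was 0.02 (SE 0.103, adjusted p = 0.905). MMS at 320 µM moved it from 10.85, 11.03 and 10.79 to 11.63, 11.50 and 11.58, a change of 0.68 (SE 0.0739, 1.6-fold, adjusted p = 5.35e-08). With 4 mM EMS it was lower, 10.55, 10.68 and 10.57 against 10.93, 11.04 and 10.90, a change of -0.35 (SE 0.0658, adjusted p = 9.58e-05). In none of these 5 comparisons did treated and untreated arrays of H2BC12 overlap.

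H2BC12L, an H2B gene on chromosome 21 read by an _x_at probe set that may share signal with H2BC12, went the same ways. Its untreated arrays in the colcemid set read 8.94, 9.05 and 9.05 and the treated ones 10.80, 10.77 and 10.64, a change of 1.72 (SE 0.066, 3.3-fold, adjusted p = 1e-13). The changes were 1.28 (adjusted p = 2.12e-10) with vincristine and 1.94 (adjusted p = 2.69e-15) with formaldehyde. H2BC12L also rose with MMS, by 0.64 (adjusted p = 5.29e-06), and had a change of -0.45 (adjusted p = 0.00016) with EMS.

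H2BC21, an H2B gene on chromosome 1, stayed below the limit on every untreated array, and its values are a description. Its untreated arrays in the colcemid set read 5.53, 5.64 and 5.49 and the treated arrays 7.15, 7.09 and 7.06, a difference of 1.54 (SE 0.075). With vincristine it read 6.81, 6.91 and 6.76, with 200 µM formaldehyde 6.77, 6.81 and 6.71 and with MMS 6.60, 6.72 and 6.44, all above the limit. With 4 mM EMS it read 5.95, 6.11 and 5.85, still below. After 4 h of 200 µM formaldehyde H2BC21 read 6.88, 6.69 and 6.67 against 5.27, 5.30 and 5.32, a difference of 1.45 (SE 0.0828). It was also the 1 member called higher at 4 h with MMS, where 6.12, 6.19 and 5.98 stood against 5.72, 5.76 and 5.57, levels around or below the limit. In each of these comparisons the treated arrays lay above the untreated ones.

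H2BC4, which shares its promoter stretch with H2AC6, read 5.66, 5.97 and 5.82 untreated and 7.37, 7.31 and 7.40 with colcemid at 24 h, a difference of 1.54 (SE 0.108). The differences were 1.21 (SE 0.126) with vincristine, 0.74 (SE 0.136) with formaldehyde and 0.72 (SE 0.105) with MMS, and with EMS the arrays overlapped. H2BC3 read 5.49, 5.48 and 5.56 untreated and 7.17, 7.16 and 7.02 with formaldehyde, a difference of 1.60 (SE 0.101), and differed by 1.01 (SE 0.162) with colcemid and 0.78 (SE 0.117) with vincristine. Neither H2BC4 nor H2BC3 reached the limit on an untreated array. The brighter H2BC6 and H2BC5, both on _x_at probe sets, rose by 0.98 and 1.01 with colcemid and by 1.04 and 0.74 with formaldehyde. With EMS H2BC6 and H2BC5 had changes of -0.52 (adjusted p = 0.000126) and -0.57 (adjusted p = 5.32e-07). The fall of H2BC5 lost its call, at -0.10, when its probe sets were averaged. The other single-gene probe set of H2BC5 went the other way with EMS, at 0.36 (SE 0.0751), and was called higher. It also rose by 1.74 with colcemid, 1.73 with formaldehyde, 1.08 with vincristine and 0.82 with MMS. The smaller rises of H2BC6 and H2BC5 with MMS, 0.19 and 0.24, lost their calls under repeated quantile normalization or without experiment 1. That of H2BC6 was also lost without experiment 3.

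H2BC9 separated the alkylating agents from the aneugens by direction. In the EMS set it read 8.32, 8.53 and 8.36 untreated and 7.57, 7.58 and 7.39 at 4 mM, a change of -0.89 (SE 0.0693, adjusted p = 5.8e-10), and with 320 µM MMS the change was -0.39 (adjusted p = 0.000312). With colcemid 8.93, 9.05 and 8.94 became 9.30, 9.36 and 9.13, a change of 0.29 (SE 0.071, 1.22-fold, adjusted p = 0.00284), and with vincristine the change was 0.30 (adjusted p = 0.00156). The clastogen mean minus the aneugen mean was -0.93 (SE 0.0748, adjusted p = 3.08e-18). The call with colcemid was lost without experiment 1, at a change of 0.25. With formaldehyde at 24 h the arrays of H2BC9 overlapped, at 8.93, 8.71 and 8.86 against 8.77, 8.93 and 8.88.

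**Figure D2:**
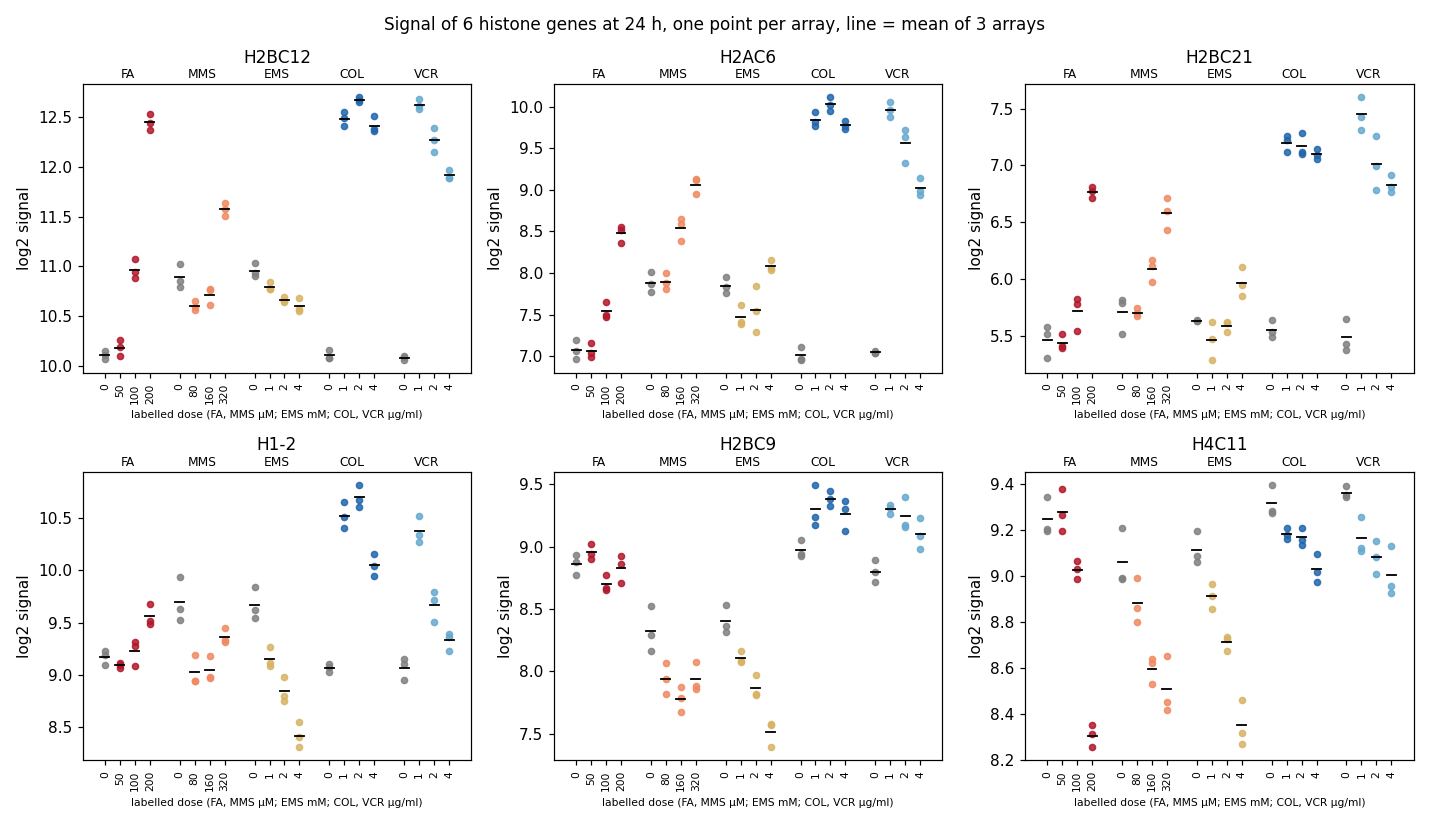
Log2 signal (vertical axis) of H2BC12, H2AC6, H2BC21, H1-2, H2BC9 and H4C11 on each of the 60 arrays taken at 24 h, 1 panel per gene, ordered along the horizontal axis by chemical and labelled dose with untreated arrays at 0 in grey. Points are arrays and black lines are means of 3 arrays; H2BC12 stands above untreated with colcemid, vincristine and 200 µM formaldehyde, H2AC6 is up most with colcemid and the lowest vincristine dose, H1-2 goes down with EMS and up with colcemid, and H4C11 goes down with rising formaldehyde and EMS.

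Among H2A genes, 3 of 7 rose with the highest doses of colcemid, formaldehyde and MMS at 24 h, and 2 of 7 with vincristine and EMS. H2AC14 was the single lower one with colcemid, vincristine, formaldehyde and EMS. The H2A shares called were 57.1% with colcemid and formaldehyde, against 36.4% and 47.7% of all genes. They were 42.9% with vincristine, MMS and EMS, against 35.7%, 58.5% and 51.5%. H2AC6, a core H2A gene on an _s_at probe set, had the largest rise of any member with colcemid. Untreated arrays of H2AC6 read 7.11, 6.97 and 6.96 and treated arrays 9.77, 9.83 and 9.73, a change of 2.77 (SE 0.0983, 6.8-fold, adjusted p = 3.99e-14). Vincristine at its highest dose gave 8.98, 9.14 and 8.94 against 7.06, 7.03 and 7.04, a change of 1.98 (SE 0.116, 3.94-fold, adjusted p = 2.22e-11). Formaldehyde at 200 µM gave 8.51, 8.56 and 8.37 against 6.97, 7.20 and 7.07, a change of 1.40 (SE 0.109, 2.64-fold, adjusted p = 6.8e-10), and the formaldehyde change minus the colcemid change was -1.37 (SE 0.152, adjusted p = 3.46e-09). MMS at 320 µM gave 9.12, 8.95 and 9.13 against 7.87, 8.01 and 7.77, a change of 1.18 (SE 0.114, 2.27-fold, adjusted p = 9.29e-09). With EMS it read 8.06, 8.16 and 8.03 against 7.83, 7.96 and 7.76, and the change of 0.24 (adjusted p = 0.16) did not pass the test although the arrays did not overlap. In the alternative limma fit with the experiment as a replicate block this change was called (adjusted p = 0.0391).

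H2AC17, another core H2A gene, behaved differently from H2AC6, with its larger changes under the DNA-reactive chemicals. With MMS it read 6.89, 7.08 and 6.72 untreated and 7.94, 7.94 and 7.96 treated, a change of 1.05 (SE 0.114, 2.07-fold, adjusted p = 5.52e-08). The changes were 0.93 (adjusted p = 5.58e-09) with formaldehyde, 0.83 (adjusted p = 4.26e-06) with EMS and 0.28 (adjusted p = 0.0281) with colcemid, and 0.02 (adjusted p = 0.918) with vincristine, which did not pass the test. For H2AC17 the clastogen mean minus the aneugen mean was 0.79 (SE 0.112, adjusted p = 4.66e-09). Its call with colcemid was lost without experiment 1 or 2, at 0.28 and 0.22. H2AC8 rose with all 5 highest doses, and with MMS from 6.43, 6.74 and 6.61 to 8.02, 7.76 and 7.57, a change of 1.19 (SE 0.113, 2.28-fold, adjusted p = 6.75e-09). It changed by 0.68 (adjusted p = 1.47e-06) with colcemid, 0.43 (adjusted p = 0.00568) with vincristine, 0.29 (adjusted p = 0.00308) with formaldehyde and 0.31 (adjusted p = 0.0475) with EMS. The EMS call was lost without the filter on dim genes, under repeated quantile normalization and without experiment 1 or 2, and the vincristine call without experiment 1 or 2. H2AC14 had its largest change with EMS, -0.48 (adjusted p = 5.49e-05). In the colcemid set its change of -0.15 (adjusted p = 0.0406) lost its call in 4 of the alternatives, among them the fits without experiment 1 or 2.

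The linker histones did not move as a group. Of 8 tested H1 genes, 2 were higher and 1 lower with colcemid at 24 h, 2 and 1 with formaldehyde, 2 and 3 with MMS, 1 and 2 with EMS and none either way with the highest dose of vincristine. The shares called were 37.5%, 37.5%, 62.5%, 37.5% and 0%, against 36.4%, 47.7%, 58.5%, 51.5% and 35.7% of all genes. H1-2, a replication-dependent linker histone on a plain probe set, moved in opposite directions between chemicals. In the EMS set it read 9.55, 9.84 and 9.62 untreated and 8.41, 8.55 and 8.31 at 4 mM, a change of -1.25 (SE 0.102, adjusted p = 1.17e-09). In the colcemid set 9.07, 9.11 and 9.03 became 10.04, 10.16 and 9.94, a change of 0.98 (SE 0.0836, 1.97-fold, adjusted p = 1.15e-08). With MMS the change was -0.33 (adjusted p = 0.016), a call lost without experiment 3, and with formaldehyde 0.39 (adjusted p = 0.0011). With the highest dose of vincristine 9.36, 9.40 and 9.23 stood against 9.10, 9.15 and 8.95, and the change of 0.26 (adjusted p = 0.0891) did not pass the test. In the alternative limma fit with the experiment as a replicate block it was called (adjusted p = 0.00727). At 4 h H1-2 was lower with 200 µM formaldehyde, 8.56, 8.45 and 8.56 against 8.98, 8.88 and 8.75, a change of -0.34 (SE 0.0916, adjusted p = 0.00343), a call lost without experiment 2. It was lower at 4 h with MMS too, with a change of -0.55 (adjusted p = 0.000746).

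H1-3, also a replication-dependent linker gene, was lower with the DNA-reactive chemicals. After 4 h of 320 µM MMS it read 6.38, 6.41 and 6.36 against 7.11, 7.45 and 6.99, a change of -0.80 (SE 0.122, adjusted p = 3.06e-05), which was the largest change of any member in that comparison. It was the only member called at 4 h with EMS, where 6.87, 6.63 and 6.72 stood against 7.32, 7.07 and 7.09, a change of -0.42 (SE 0.0954, adjusted p = 0.00672), and that call was lost without experiment 1 or 2. At 24 h its change was -0.49 (adjusted p = 0.000177) with EMS, -0.38 (adjusted p = 0.0104) with MMS, where the arrays overlapped, and -0.26 (adjusted p = 0.0309) with formaldehyde. The MMS and formaldehyde calls were lost without experiment 2 or 3. H1-4 changed by 0.40 (adjusted p = 0.000789) with MMS and -0.25 (adjusted p = 0.0253) with colcemid, the second lost without experiment 1 or 2 and in the fit of all arrays. H1-5, which reached the limit on only 5 of 120 arrays, was lower at 4 h with MMS, at -0.33, a call lost without experiment 1 or 3.

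H1-10, the replication-independent linker histone on chromosome 3, rose at 24 h with 4 of the 5 highest doses. With formaldehyde it went from 7.30, 7.29 and 7.15 to 8.11, 8.09 and 8.26, a change of 0.91 (SE 0.0866, 1.87-fold, adjusted p = 1.62e-08). MMS gave 0.79 (adjusted p = 1.13e-07), EMS 0.36 (adjusted p = 0.00158) and colcemid 0.34 (adjusted p = 0.00244). For vincristine at the highest dose the change of 0.07 (adjusted p = 0.678) did not pass the test. The EMS and colcemid calls of H1-10 were lost without experiment 1, at 0.33 and 0.32. In EMS the lower doses had gone the other way, with -0.42 (adjusted p = 0.00136) at 1 mM and -0.24 (adjusted p = 0.0383) at 2 mM.

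H3 and H4 genes showed calls in both directions. Of 5 tested H3 genes, none was higher and 1 lower with colcemid and with vincristine at 24 h, and 2 were higher and 1 lower with MMS. The shares called were 20%, 20% and 60%, against 36.4%, 35.7% and 58.5% of all genes. H3C7 was the lower gene in both aneugen sets. Its arrays read 6.43, 6.84 and 6.61 untreated and between 5.95 and 6.03 with colcemid, a change of -0.64 (SE 0.105, adjusted p = 5.56e-05), and with vincristine the change was -0.65 (adjusted p = 5.03e-05). H3C7 begins 979 bases from H2BC9 on the opposite strand, and H2BC9 rose in the same 2 comparisons. With 2 mM EMS H3C7 had a change of -0.87 (SE 0.118, adjusted p = 6.24e-06), while at 4 mM it was -0.11 (adjusted p = 0.492) and did not pass the test. H3C2, on an _s_at probe set, was below the limit on every untreated array. It read 5.01, 5.33 and 5.14 untreated and 6.73, 6.37 and 6.43 with MMS, and these 3 MMS arrays are the only ones of 120 that reached the limit. With formaldehyde H3C2 stayed below it at both times, and with EMS its arrays overlapped. H3C3 had small changes, at most -0.49 (adjusted p = 7.93e-05) with EMS, and its calls with formaldehyde at both times were lost without experiment 1 or 3.

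Of 6 tested H4 genes, 1 was higher and 2 lower with colcemid at 24 h and 1 and 3 with vincristine. Formaldehyde gave 1 and 2, MMS 3 and 2 and EMS 0 and 2. The H4 shares called were 50%, 66.7%, 50%, 83.3% and 33.3% in that order. Of all genes 36.4%, 35.7%, 47.7%, 58.5% and 51.5% were called. H4C8 and H4C1 in these counts passed the filter through treated arrays. H4C11, a core H4 gene on an _x_at probe set, was the only member lower at 24 h with all 5 highest doses. Formaldehyde took it from 9.20, 9.34 and 9.20 to 8.35, 8.26 and 8.31, a change of -0.94 (SE 0.0609, adjusted p = 3.94e-11). EMS at 4 mM gave 8.27, 8.46 and 8.32 against 9.09, 9.19 and 9.06, a change of -0.76 (SE 0.0752, adjusted p = 2.1e-08). MMS gave -0.55 (adjusted p = 4.65e-07), vincristine -0.36 (adjusted p = 0.000271) and colcemid -0.29 (adjusted p = 0.000205), and in none of the 5 did the arrays overlap. At 4 h formaldehyde had raised H4C11, by 0.25 (adjusted p = 0.0015). H4C4 reached the limit on only 6 of 120 arrays, and its values are a description. It read 5.18, 5.34 and 5.18 with formaldehyde against 6.34, 6.20 and 6.31 untreated, a difference of -1.05 (SE 0.13). These 3 untreated arrays are among the 6. The difference of H4C4 was -0.65 with EMS and -0.36 with vincristine, and the vincristine call was lost without experiment 2. H4C8, dim when untreated, read 5.69, 5.86 and 5.82 and 6.54, 6.58 and 6.60 without and with formaldehyde, and differed by 0.64 (SE 0.112) with MMS, 0.62 (SE 0.133) with vincristine and 0.48 (SE 0.137) with colcemid. Its other single-gene probe set differed by 0.45 (SE 0.0912) with formaldehyde, 1.06 (SE 0.0922) with MMS and 0.36 (SE 0.101) with colcemid. With vincristine that probe set differed by only 0.01 (SE 0.103). H4C1, dim as well, was called higher with MMS alone among the highest doses, at 6.75, 6.26 and 6.37 against 5.82, 5.57 and 5.76. H4C9 had a change of -0.48 (adjusted p = 0.000647) with vincristine, and its calls with MMS and colcemid were lost in 5 and 2 of the alternatives.

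**Figure D3:**
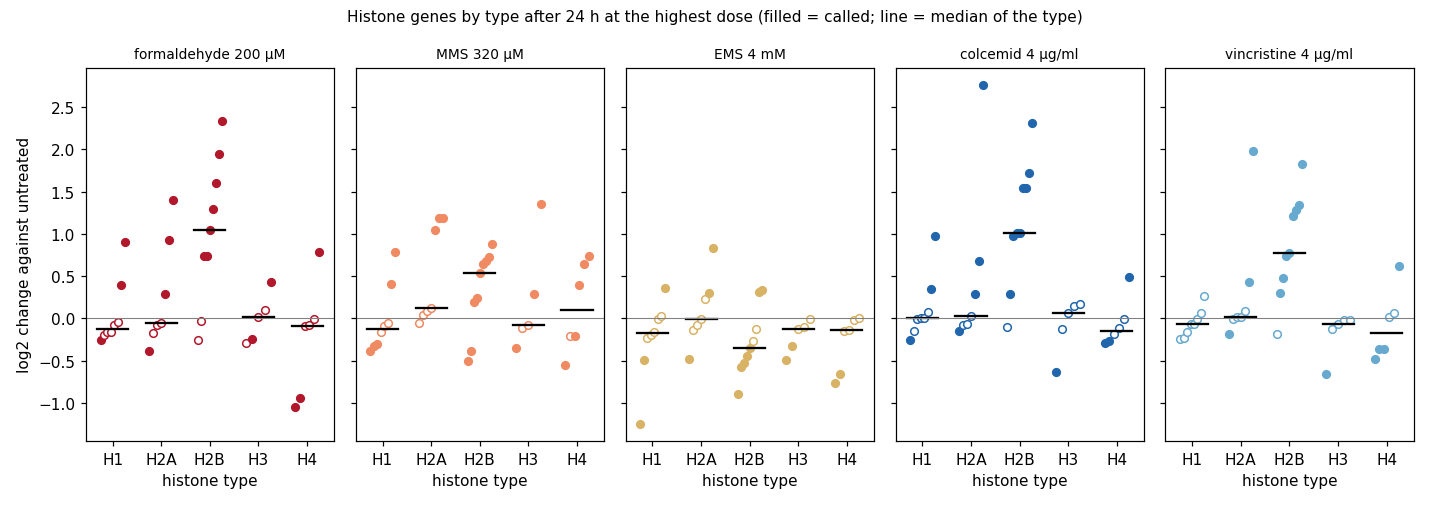
Log2 change against untreated cells (vertical axis) after 24 h at the highest dose of each chemical (panels), with 1 point per tested gene grouped by histone type (horizontal axis). Filled points have an adjusted p under 0.05 and the black line is the median of the type. The H2B medians are 1.04, 0.54, -0.35, 1.01 and 0.78 from left to right. Those of H1, H2A, H3 and H4 lie between -0.18 (H1, EMS) and 0.12 (H2A, MMS).

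The dose courses differed in shape. Formaldehyde at 50 µM called no member by limma at either time, with 3 under an unadjusted p of 0.05 at 4 h and 2 at 24 h and backgrounds of 0.82% (0.214% higher, 0.606% lower) and 0% (0% higher, 0% lower). At 100 µM it called 7 higher and 4 lower at 4 h (40.7% of all genes, 20.9% higher and 19.8% lower) and 4 higher and 1 lower at 24 h (3.81% of all genes, 3.42% higher and 0.385% lower). Without the 6 dim members the counts were 4 and 4 at 4 h and 3 and 1 at 24 h. H2BC12 changed most of the members called at 24 h, with 10.88, 11.08 and 10.94 against 10.15, 10.11 and 10.07, a change of 0.85 (SE 0.0801, 1.81-fold, adjusted p = 1.13e-06). From 100 to 200 µM at 24 h 14 members rose and 4 fell (42.8% of all genes, 20.5% higher and 22.2% lower). H2BC12L gained 1.55 (SE 0.0679, adjusted p = 2.67e-13), and H4C4, mostly below the limit, changed by -0.74 (SE 0.13). The same step at 4 h raised 13 and lowered none (34.9% of all genes, 17.4% higher and 17.5% lower), with H2AC17 gaining 0.49.

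For MMS at 24 h the direction turned with dose. At 80 µM 11 members were lower and none higher, against 28.5% (17.6% higher, 10.9% lower) of all genes. At 160 µM 7 were higher and 9 lower (47.3% of all genes, 25.7% higher and 21.6% lower), and at 320 µM 17 were higher and 8 lower. Without the 6 dim members the counts were 4 and 9 at 160 µM and 11 and 8 at 320 µM. Tested directly, 21 members were higher and 3 lower at 320 than at 80 µM (52.4% of all genes, 27.6% higher and 24.8% lower). At 4 h limma called no member at 80 µM, with 3 under an unadjusted p of 0.05 and 1.6% (0.62% higher, 0.984% lower) of all genes called, and 1, lower, at 160 µM (13.5% of all genes, 6.97% higher and 6.57% lower). H2BC12 shows the turn at 24 h, with 10.60, 10.65 and 10.56 at 80 µM below and 11.63, 11.50 and 11.58 at 320 µM above the untreated 10.85, 11.03 and 10.79. H2AC8 differed by 1.40 (SE 0.113, adjusted p = 7.85e-10) between these doses. H1-2 stayed below untreated at all 3 doses, with changes of -0.67, -0.66 and -0.33. The ACTB 3' minus 5' difference rose with dose in these arrays, from 0.941 untreated to 1.06, 1.28 and 1.88 at 24 h, and its part in the result was not tested.

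EMS lowered 14, 17 and 12 members at 1, 2 and 4 mM at 24 h and raised 0, 0 and 5, against 24.3% (15.4% higher, 8.94% lower) and 34.6% (19.9% higher, 14.7% lower) of all genes at the 2 lower doses. The same 10 members were lower at all 3 doses, H1-2, H1-3, H2AC14, H2BC12L, H2BC5, H2BC6, H2BC9, H3C3, H3C8 and H4C4. For H2BC5 this holds for its brighter probe set, and the other was higher at 4 mM. H1-2 went down step by step, with changes of -0.51, -0.83 and -1.25, and the difference between 4 and 1 mM was -0.74 (SE 0.102, adjusted p = 4.12e-06). H2AC17 and H1-10 went up between these doses, by 0.95 and 0.78. Over the members 7 were higher and 6 lower at 4 than at 1 mM (43.7% of all genes, 21.8% higher and 22% lower). At 4 h limma called no member at 1 or 2 mM, with 0 and 2 under an unadjusted p of 0.05, against 0.143% (0.107% higher, 0.0357% lower) and 1.06% (0.72% higher, 0.335% lower) of all genes. The ACTB difference was 0.521 untreated and 0.664 at 4 mM, and its part was not tested.

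With the aneugens the rises were already there at the lowest dose. Colcemid called 14 higher and 3 lower at each of its 2 lower doses (37.3% of all genes, 16.6% higher and 20.7% lower, and 37.7%, 17.4% higher and 20.3% lower), and the 14 higher members were the same at all 3 doses. Vincristine called 14 higher and 4 lower at the lowest dose (37.4% of all genes, 16.6% higher and 20.8% lower) and 13 higher and 7 lower at the middle one (36.9% of all genes, 17.4% higher and 19.5% lower). Members higher at all 3 doses of both chemicals numbered 11, H2AC6, H2AC8, H2BC12, H2BC12L, H2BC21, H2BC3, H2BC4, H2BC5, H2BC6, H2BC9 and H4C8, and H3C7 was the 1 lower throughout. Of the 11, H2BC21, H2BC3, H2BC4 and H4C8 passed the filter through treated arrays and had to be high there. The other probe set of H4C8 was not called with the highest vincristine dose. Without the 6 dim members colcemid called 10 higher and 2 lower at the lowest dose and 10 and 3 at the middle one. For vincristine these counts were 10 and 4 and 9 and 7. Between the vincristine doses 12 members were lower and none higher at the highest than at the lowest dose (13.6% of all genes, 8.17% higher and 5.44% lower). H2AC6 read 9.96, 10.06 and 9.87 at the lowest and 8.98, 9.14 and 8.94 at the highest dose, a difference of -0.94 (SE 0.116, adjusted p = 1.31e-05). For H1-2 the change was 1.31 (SE 0.117, 2.48-fold, adjusted p = 1.41e-08) at the lowest dose and the difference to the highest -1.05 (SE 0.117, adjusted p = 4.52e-06). Colcemid showed 1 higher and 3 lower between these doses (13.7% of all genes, 8.17% higher and 5.51% lower), among them H1-2 at -0.47. At 4 h limma called no member at the lowest and middle doses, with 3 and 1 under an unadjusted p of 0.05 for colcemid and 1 and 0 for vincristine, where 0% (0% higher, 0% lower) and 0.0642% (0.0214% higher, 0.0428% lower) of all genes were called with colcemid, and 0% (0% higher, 0% lower) and 0.00713% (0% higher, 0.00713% lower) with vincristine. The ACTB difference was 0.512 with the highest colcemid dose and 0.540 untreated, and 0.499 with vincristine and 0.463 untreated.

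**Figure D4:**
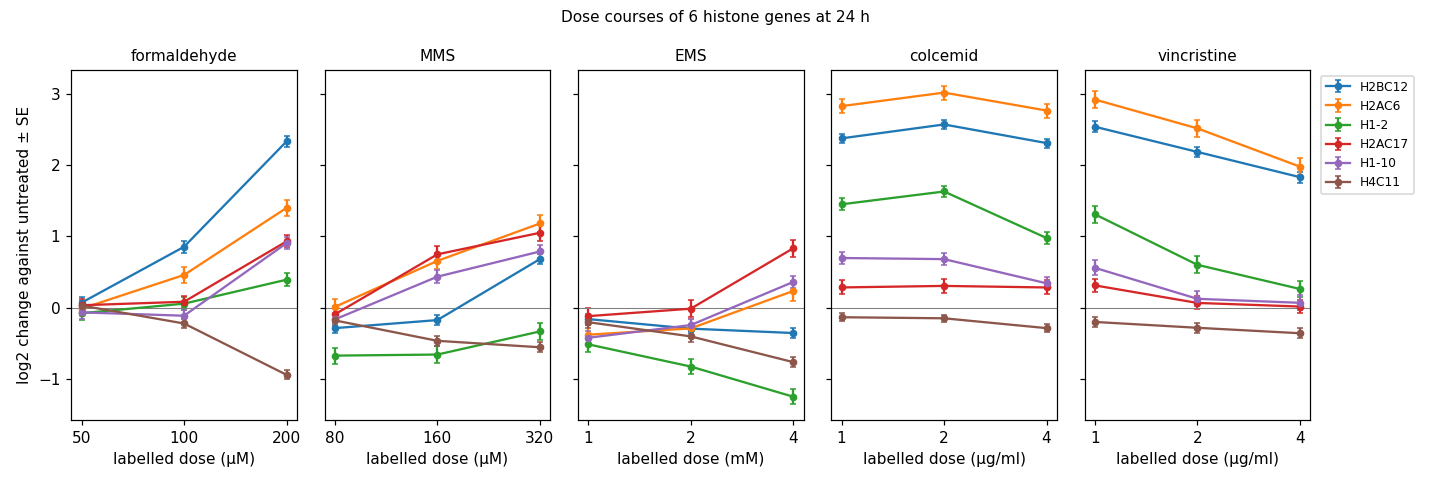
Log2 change against untreated cells at 24 h (vertical axis, bars are standard errors from the fit) of H2BC12, H2AC6, H1-2, H2AC17, H1-10 and H4C11 at the 3 labelled doses (horizontal axis) of each chemical (panels). H2BC12 climbs with formaldehyde and MMS doses, changes little over colcemid doses, and is lower at the highest than at the lowest dose of vincristine, while H1-2 falls with EMS.

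The design sets clastogens, aneugens and formaldehyde side by side, and these comparisons are of the doses used. At the highest doses and 24 h, the mean change with MMS and EMS minus that with colcemid and vincristine was higher for 7 members and lower for 14 (54.6% of all genes, 29.9% higher and 24.7% lower). The most negative differences were those of H2BC12, at -1.91 (SE 0.0711, adjusted p = 8.13e-36), H2AC6, at -1.66 (SE 0.124, adjusted p = 8.96e-20), and H1-2, at -1.41 (SE 0.111, adjusted p = 1.26e-18). The most positive were those of H2AC17, at 0.79, and H3C7, at 0.73. At 4 h 1 member was higher and 4 lower (23.6% of all genes, 10.9% higher and 12.7% lower), with the dim H2BC21 as the higher one and H1-3 at -0.49.

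Formaldehyde's changes at 24 h were set against those of each other chemical, and the 4 differences share the formaldehyde arrays. Against EMS 13 members were higher and none lower (24.7% of all genes, 10.6% higher and 14.1% lower), led by H2BC12 at 2.69 (SE 0.105, adjusted p = 8.79e-21). Against MMS 8 were higher and 9 lower (36% of all genes, 14.4% higher and 21.6% lower), with H2BC12 at 1.65 and H2AC8 at -0.90. Against colcemid 4 were higher and 9 lower (32.7% of all genes, 16.9% higher and 15.8% lower), with H2AC17 at 0.65 and H2AC6 at -1.37. Against vincristine 9 were higher and 4 lower (34.5% of all genes, 18.2% higher and 16.3% lower), with H2AC17 at 0.91 and H4C4 at -0.69. Of the 14 members higher with formaldehyde at 24 h, 13 were also higher with colcemid, 92.9% of either list, 13 with MMS, 10 with vincristine and 5 with EMS. Each overlap holds H2BC21 and H2BC3, dim members that passed the filter through treated arrays, so its size rests partly on the filter. The ACTB difference was 0.768 with formaldehyde and 0.481 untreated, and its part was not tested.

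Within the 2 classes the chemicals also differed. MMS minus EMS at 24 h was higher for 17 members and lower for none (27% of all genes, 15.1% higher and 11.8% lower), among them H2BC12L, at 1.09 (SE 0.133, adjusted p = 4.79e-08), and H2BC12, at 1.04. MMS was dosed in µM and EMS in mM, so this compares the doses used. Colcemid minus vincristine was higher for 5, H2AC6, H1-2, H2BC5, H2BC12 and H2BC12L (2.02% of all genes, 1.51% higher and 0.506% lower), with H2AC6 at 0.79 (SE 0.158, adjusted p = 0.00261). At 4 h limma called no member for MMS minus EMS or for colcemid minus vincristine, with 4 and 2 under an unadjusted p of 0.05 and backgrounds of 7.34% (3.17% higher, 4.17% lower) and 0.057% (0.057% higher, 0% lower). Formaldehyde at 4 h was above each other chemical for 15 to 17 members and below for none. The shares of all genes called there were 43.3% (21.1% higher, 22.2% lower) against colcemid, 39.8% (18.4% higher, 21.4% lower) against MMS, 42.1% (20.6% higher, 21.4% lower) against EMS and 43.4% (21.2% higher, 22.2% lower) against vincristine.

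The change at 24 h minus that at 4 h was tested for each highest dose. It was higher for 12 and lower for 2 members with colcemid (22.5% of all genes, 10.5% higher and 12% lower), for 10 and 3 with vincristine (22.4% of all genes, 10% higher and 12.4% lower), for 15 and 3 with MMS (45.2% of all genes, 25.6% higher and 19.7% lower), for 2 and 10 with EMS (38.3% of all genes, 21.4% higher and 16.9% lower) and for 11 and 8 with formaldehyde (53.3% of all genes, 25.8% higher and 27.5% lower). In the formaldehyde set H2BC12 gained 1.87 (SE 0.113, adjusted p = 1.41e-11) between the times, while H4C4 and H4C11 had differences of -1.25 and -1.19.  One untreated formaldehyde array at 4 h, of experiment 3, stood apart in RNA quality, with an ACTB difference of 0.680 against a group mean of 0.443. Without it 200 µM still called 14 members higher and 1 lower, and 100 µM called 5 and 5, with the dim members included. H2AC14 at 200 µM then had a change of 0.15 and was not called.

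Untreated cultures also changed between 4 h and 24 h. Of the 35 members 14 were higher and 2 lower at 24 h in the formaldehyde set (29.5% of all genes, 14.5% higher and 14.9% lower), 15 and 2 in the colcemid set (35% of all genes, 16.4% higher and 18.5% lower), 11 and 2 in the vincristine set (32.9% of all genes, 16.9% higher and 16% lower), 12 and 0 in the MMS set (32.2% of all genes, 11.5% higher and 20.6% lower) and 11 and 0 in the EMS set (29.9% of all genes, 14.1% higher and 15.8% lower). H2AC17 rose by 0.73, 0.78 and 0.88 in the formaldehyde, colcemid and vincristine sets. H1-10 and H2BC12 were the 2 lower members in each of those 3 sets, with H1-10 at -0.75, -0.78 and -0.72. In the MMS and EMS sets H1-2 rose most, by 0.84 and 0.87. Untreated levels differed between sets too. H2BC12 averaged 10.89 and 10.96 in the untreated MMS and EMS cultures at 24 h and 10.1 in each of the other 3 sets.

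Members with and without the octamer of the promoters printed above are given by their counts. Of all genes 36.4% (18% higher, 18.3% lower) were called at 24 h with colcemid and 35.7% (17.5% higher, 18.2% lower) with vincristine. The shares were 47.7% (23.8% higher, 23.9% lower) with formaldehyde and 58.5% (30.8% higher, 27.7% lower) with MMS. With EMS 51.5% (27.8% higher, 23.6% lower) were called. Of the 11 tested members with it, all H2A or H2B genes, 9 were higher and 1 lower with colcemid at 24 h, 8 and 1 with vincristine, with formaldehyde and with MMS, and 4 and 4 with EMS. Their median changes were 0.98, 0.74, 0.93, 0.68 and -0.13. Of the 21 without it, 4 were higher and 4 lower with colcemid, 2 and 4 with vincristine, 5 and 4 with formaldehyde, 7 and 7 with MMS and 1 and 7 with EMS, with medians between -0.16 (EMS) and 0 (colcemid). For these 21 the shares called with colcemid and formaldehyde were near those of all genes. Without the 6 dim members the octamer list held 8, of which 6 were higher and 1 lower with colcemid, 5 and 1 with vincristine, formaldehyde and MMS, and 2 and 4 with EMS, with medians of 0.48, 0.36, 0.61, 0.44 and -0.25. The list without it held 19, of which 3 were higher and 4 lower with colcemid, 1 and 4 with vincristine, 3 and 4 with formaldehyde, 5 and 7 with MMS and 1 and 7 with EMS. The octamer follows the histone type in these genes, so the sequence and the type cannot be told apart. H2BC4 and H2AC6 share 1 octamer, so the 11 are not all separate cases.

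Genes that make, process or use histone mRNA were read from lists chosen for their known roles. Beside the counts of these lists stand the shares of all genes called at 24 h. These were 36.4% with colcemid, 35.7% with vincristine, 47.7% with formaldehyde, 58.5% with MMS and 51.5% with EMS. Of 33 DNA replication genes tested, 31 were lower and none higher with colcemid at 24 h and 28 lower and 1 higher with vincristine, with median changes of -0.42 and -0.36. PRIM1, a primase subunit, changed by -0.86 (SE 0.0366, adjusted p = 4.94e-13) with colcemid, and POLA1, a subunit of DNA polymerase alpha, by -0.75 (SE 0.0582, adjusted p = 1.82e-09) with vincristine. With MMS 28 replication genes were higher and 1 lower and with EMS 22 higher and 6 lower, led by TK1, thymidine kinase, at 2.03 and 1.27. With formaldehyde 11 were higher and 12 lower at 24 h, with POLE2, a subunit of DNA polymerase epsilon, at -0.74. At 4 h 21 were higher and 1 lower with MMS, 15 higher and none lower with EMS, and 14 higher and 5 lower with formaldehyde. Of all genes 28.6%, 9.6% and 53.8% were called there, in that order. The formaldehyde share of the replication genes at 4 h, 57.6%, was near that of all genes.

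Of 22 tested genes of histone mRNA transcription and processing, 3 were higher and 9 lower with colcemid at 24 h, 4 and 9 with vincristine, 8 and 4 with formaldehyde, 16 and 5 with MMS and 12 and 5 with EMS. The shares called were 54.5%, 59.1%, 54.5%, 95.5% and 77.3%, against 36.4%, 35.7%, 47.7%, 58.5% and 51.5% of all genes. SLBP, which binds the stem-loop of histone mRNA, was lower with both aneugens, at -0.48 (SE 0.0328, adjusted p = 4.46e-10) with colcemid and -0.42 (SE 0.0394, adjusted p = 3.06e-08) with vincristine. It changed by -0.16 with formaldehyde and 0.32 with MMS, and with EMS its 0.01 did not pass the test. NPAT, which is known to switch on histone gene transcription, had a change of -2.14 (SE 0.0882, adjusted p = 2.33e-14) after 4 h of 200 µM formaldehyde, the comparison in which 14 members rose, and of 0.14 at 24 h, which did not pass the test. ZNF473, a zinc finger protein of the histone mRNA processing complex, rose by 2.54 (SE 0.0682, adjusted p = 1.26e-17) with MMS, 1.27 with EMS and 0.85 with formaldehyde. CCNE2, a cyclin that activates CDK2 at the start of DNA synthesis, changed by -1.01 with colcemid and -1.29 with vincristine, and by 1.24 with MMS.

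Of 18 histone chaperone genes, none was higher with either aneugen at 24 h and 11 and 10 were lower, among them ASF1B, a chaperone of H3 and H4, at -0.51 and -0.39. With formaldehyde 2 were higher and 8 lower, with MMS 8 and 5 and with EMS 9 and 8. The chaperones' shares called were 61.1% with colcemid, 55.6% with vincristine and with formaldehyde, 72.2% with MMS and 94.4% with EMS. Of all genes 36.4%, 35.7%, 47.7%, 58.5% and 51.5% were called with colcemid, vincristine, formaldehyde, MMS and EMS. IPO4, an importin that carries histones into the nucleus, had the largest changes with formaldehyde, MMS and EMS, -0.64, -1.27 and -1.11. Of 8 replication-independent variants tested, none rose and 3 fell with colcemid, 1 rose and 3 fell with vincristine, none rose and 4 fell with formaldehyde, 3 rose and 4 fell with MMS and none rose and 2 fell with EMS. The variants' shares called were 37.5%, 50%, 50%, 87.5% and 25% in that order. Those with colcemid and formaldehyde were near the shares of all genes. H2AJ, a replication-independent H2A, changed by -0.54 (SE 0.0697, adjusted p = 2.64e-06) with vincristine and 0.42 with MMS, and H2AX, known for its phosphorylation at DNA breaks, by 0.34 with MMS. Of 6 genes of the panel of CDK inhibitors and p53 targets, 4 rose with colcemid and 1 fell, 3 and 1 with vincristine, 5 and 0 with formaldehyde, and 4 and 0 with MMS and with EMS. CDKN1A, the CDK inhibitor p21, rose at 24 h by 1.93 with formaldehyde, 2.25 with MMS, 1.93 with EMS, 1.04 with colcemid and 0.81 with vincristine.

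A further 20 probe sets list several histone genes each and name no single gene, and 17 of them were tested among 31831 probe sets. At 24 h 11 were higher and 3 lower with colcemid (31.9% of all probe sets called), 8 and 3 with vincristine (32.8%), 13 and 3 with formaldehyde (42.2%), 13 and 1 with MMS (53.5%) and 3 and 8 with EMS (45.6%). At 4 h 12 were higher with formaldehyde and none lower (48.3%). The brightest lists 14 H4 genes. Its untreated mean of 13.1 ± 0.0118 (SD, n = 3) in the colcemid set became 12.4 ± 0.0187, a change of -0.72 (SE 0.0362, adjusted p = 8.51e-12), and with vincristine the change was -0.95 (SE 0.0416, adjusted p = 4.12e-13). With MMS it changed by 0.0097 (adjusted p = 0.849). A probe set listing 2 H2B genes went from 6.53 ± 0.0936 to 8.72 ± 0.102 with colcemid, a change of 2.19 (SE 0.123, adjusted p = 3.88e-11), and rose by 2.60 with formaldehyde, 1.60 with MMS, 1.23 with EMS and 1.60 with vincristine. A probe set listing 2 H2A genes rose by 0.86 with colcemid, 0.45 with vincristine, 1.40 with formaldehyde and 0.83 with MMS, and changed by -0.28 with EMS. Probe sets of 1 histone type did not all move one way. Of 4 tested probe sets listing the same number of H4 genes, 3 were lower and 1 higher with colcemid, the higher one by 0.71 (SE 0.101, adjusted p = 1.41e-05), and with vincristine 2 of these 4 were lower and the other 2 did not pass the test. A probe set listing 6 H2A genes, among them H2AC17, was lower with vincristine, at -0.20 (SE 0.0703, adjusted p = 0.0322). It was also lower with formaldehyde, at -0.32 (adjusted p = 0.000528), and with EMS, at -0.24 (adjusted p = 0.00676). Another probe set listing the same 6 genes rose by 1.32 with formaldehyde (adjusted p = 1.33e-07), and its -0.18 with EMS did not pass the test.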

How the data were processed

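Each of 40 groups of TK6 cultures was measured on 3 Affymetrix HG-U133 Plus 2 arrays, per the labels. The authors deposited log2 signals, and the submitters' processing notes name RMA as the tool. Its version and the set of arrays it was run on are not given in the sources used here. The number of arrays limits precision.

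Each gene was read from its brightest single-symbol probe set over all arrays, and genes below 6.18 (the middle of all probe sets' mean log2 signals) on all but 2 arrays were left untested, which left 14023 of 19775 genes. Changes were fitted with limma 3.58.1 (lmFit, eBayes) in R 4.3.3, on the 24 arrays of a chemical, with 48 arrays for 2 chemicals and the arrays of 4 chemicals for the 2 classes, and adjusted by Benjamini-Hochberg over all tested genes within each comparison. The procedure was tested on simulated data.

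The members and lists were chosen with earlier results of these data known. Named members are a fixed panel, members called in at least 3 of the 10 highest-dose comparisons, and up to 6 of the largest consistent changes in each; from the lists, fixed genes and up to 4 of the largest. H2BC8 and H2AC18 of the panel and H3-3B were not analysed here, and H3C1 was below the limit. Promoters are RefSeq's for GRCh38.p14. Alternatives were an experiment block, another filter, probe set choice, repeated quantile normalization, 1 fit of all arrays and leaving out each experiment, and, after seeing the data, leaving out 1 untreated array and reading probe sets that list several genes.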

Additional observations from a re-analysis of the deposited data

Results flagged for a closer look

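The change at 24 h differed from that at 4 h, by a test of the difference itself, for 19 of the 35 tested members with 200 µM formaldehyde (53.3% of all genes), 18 with 320 µM MMS (45.2%), 12 with 4 mM EMS (38.3%), 14 with the highest dose of colcemid (22.5%) and 13 with that of vincristine (22.4%). For formaldehyde, MMS and EMS these shares are near those of all genes.

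The change with formaldehyde differed from that with MMS for 17 members at 4 h and 17 at 24 h (39.8% and 36% of all genes), from that with EMS for 16 and 13 (42.1% and 24.7%), from that with colcemid for 17 and 13 (43.3% and 32.7%), and from that with vincristine for 15 and 13 (43.4% and 34.5%). MMS and EMS differed for 17 members at 24 h (27%) and colcemid and vincristine for 5 (2.02%). The mean of the clastogens differed from the mean of the aneugens for 5 members at 4 h (23.6%) and 21 at 24 h (54.6%). These compare the doses used.

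The probe sets that list several histone genes, which the gene-level comparisons do not use, were called against untreated cells too: 12 of 17 with formaldehyde at 4 h (48.3% of all probe sets) and 16 at 24 h (42.2%), 5 with MMS at 4 h (26.6%) and 14 at 24 h (53.5%), and at 24 h 11 with EMS (45.6%), 14 with colcemid (31.9%) and 11 with vincristine (32.8%). The 24 h counts other than that of EMS include a probe set that passed the filter through treated arrays.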

How the results depend on the processing

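The alternatives were run gene by gene for the 24 named members, and no change called in the main fit or in the alternative reversed. Of 2084 changes recomputed under an alternative, 2004 kept their side of the threshold, 56 lost their call and 24 gained one. Direction was not checked for changes called in neither fit. Reading plain _at probe sets alone left 24 members, of which 6 were called with formaldehyde at 4 h and, at 24 h, 10 with formaldehyde, 16 with MMS, 8 with EMS, 10 with colcemid and 8 with vincristine; fewer genes were tested there. With EMS at 4 h the count of 1 became 3 with the experiment as a replicate block and 3 under repeated quantile normalization.

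Leaving out each experiment in turn gave 13 to 15 calls with formaldehyde at 4 h and 17 to 19 at 24 h, 4 to 4 with MMS at 4 h and 20 to 25 at 24 h, 0 to 1 with EMS at 4 h and 15 to 17 at 24 h, 13 to 18 with colcemid and 14 to 17 with vincristine at 24 h, and 0 to 0 with either at 4 h.

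Same-numbered arrays deviated together only in part: the correlation of their deviations had a median of 0.285 over 30 comparisons, ran from -0.13 to 0.51 and was over 0.1 for every pair in 19, which is short of every comparison, so the pairing was not used; the median for other numbers was -0.14, a hint from the data, not the design, that same-numbered arrays may be paired. The replicate block gave at 4 h and 24 h 16 and 20 calls with formaldehyde (57.9% and 51% of all genes), 7 and 24 with MMS (31.1% and 60.6%), 3 and 18 with EMS (12.9% and 54.7%), 0 and 19 with colcemid (1.98% and 41.5%) and 0 and 19 with vincristine (0.784% and 40.5%). Under the block H1-2 with vincristine (adjusted p = 0.00727) and H2AC6 with EMS (adjusted p = 0.0391) were called at 24 h. Dim members limit what signal over background can show: without the filter 20 and 22 of 50 members were called with formaldehyde (39.6% and 34.5% of all genes), 6 and 26 with MMS (18.8% and 43.7%), 1 and 20 with EMS (5.48% and 36.2%), 0 and 21 with colcemid (0.506% and 24.7%) and 0 and 17 with vincristine (0.162% and 24.2%).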
